A study of Mus musculus with 16 samples.

Results

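Kit and Kitl are a receptor and its ligand, and their transcripts were followed over both salivary glands and both tissue layers. Kit encodes a receptor tyrosine kinase of the cell surface, and Kitl encodes KIT ligand, also called stem cell factor. They were matched by gene symbol, which gave 2 of 48709 genes, and both were among the 18191 genes that had enough counts to be tested. The libraries were bulk RNA-seq of wild-type ICR mice at embryonic day 13, with no treatment named. The 4 groups were parotid epithelium, submandibular epithelium, parotid mesenchyme and submandibular mesenchyme, with 4 libraries each that the labels call independent biological replicates. Whether these came from separate litters is not given, so p-values measure the spread between samples of the same group. In the fitted tests that spread was estimated over all 16 libraries together. The extraction protocol gives harvest at that stage, while the text of the series also speaks of glands that were cultured before dissection.

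KIT is activated when KIT ligand joins receptor molecules into pairs, and it then signals through SRC family kinases, PI3-kinase, RAS and STAT proteins. The ligand is made as a membrane protein that can act on touching cells or be cut off by proteases and act at a distance. In salivary glands of the mouse embryo, KIT marks progenitor cells in the end buds of the epithelium, where KIT and FGFR2b signals act together. Outside the gland epithelium KIT is known from mast cells, melanoblasts and blood progenitors.

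Gene counts per library were 21307466 to 23885698 in parotid epithelium and, in that of the submandibular gland, 19090077 to 27646844. Parotid mesenchyme had 19080629 to 25846015 and submandibular mesenchyme 16912258 to 18583164. The layers matched their labels: summed over 8 epithelial markers, mesenchyme had 0.906% of the level of epithelium in the parotid gland and 1.78% in the submandibular gland. Summed over 9 mesenchymal markers, epithelium had 1.16% of the level of mesenchyme in the parotid gland and 0.887% in the submandibular gland. Among epithelial libraries, parotid replicate 4 and submandibular replicate 1 held the most blood progenitor and erythroid transcripts, 256.2 and 538.7 CPM over 10 markers. CPM are counts scaled to the size and the composition of the library.

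Kit lies on the plus strand of chromosome 5 at chr5:75574916-75656722 (GRCm38), and its main coding transcript in GENCODE has 21 exons and 5214 bases. Kitl lies on the plus strand of chromosome 10 at chr10:100015630-100100416, and its main coding transcript has 10 exons and 5648 bases. No other annotated gene overlaps either of them. Each gene makes coding transcripts that differ by a short stretch, and these stretches are shown because the deposited counts sum over them. Capitals mark the bases that the longer form has and the shorter form lacks, with 15 flanking bases on each side in lower case. In Kit they are 12 bases of exon 9 at chr5:75639147-75639158, present in Kit-201 and absent from Kit-204, forms that differ next to the membrane. In Kitl they are the 84 bases of exon 6 at chr10:100080857-100080940, present in Kitl-202 and absent from Kitl-201. That exon is known to encode the main site at which the ligand is cut from the membrane.
Kit 12-base stretch: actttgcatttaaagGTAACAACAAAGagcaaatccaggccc
Kitl exon 6: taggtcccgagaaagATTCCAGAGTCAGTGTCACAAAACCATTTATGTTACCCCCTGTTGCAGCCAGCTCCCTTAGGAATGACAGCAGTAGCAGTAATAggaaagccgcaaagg
The gene counts used for all values therefore give the total over all annotated forms of each gene, and say nothing of how much ligand was in the form that lacks this exon.

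The promoters are shown because both genes were lower in parotid than in submandibular epithelium. They run from 250 bases before to 50 bases after the start of the gene in RefSeq (GRCm38.p6), chr5:75574737-75575036 for Kit and chr10:100015571-100015870 for Kitl, both on the plus strand. Capitals mark TATAAA and GGGCGG on either strand.
Kit promoter: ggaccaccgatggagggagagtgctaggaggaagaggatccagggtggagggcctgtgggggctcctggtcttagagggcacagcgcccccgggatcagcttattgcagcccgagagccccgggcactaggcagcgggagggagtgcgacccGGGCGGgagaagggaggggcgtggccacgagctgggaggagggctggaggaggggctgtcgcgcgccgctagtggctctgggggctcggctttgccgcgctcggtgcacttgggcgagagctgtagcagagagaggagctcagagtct
Kitl promoter: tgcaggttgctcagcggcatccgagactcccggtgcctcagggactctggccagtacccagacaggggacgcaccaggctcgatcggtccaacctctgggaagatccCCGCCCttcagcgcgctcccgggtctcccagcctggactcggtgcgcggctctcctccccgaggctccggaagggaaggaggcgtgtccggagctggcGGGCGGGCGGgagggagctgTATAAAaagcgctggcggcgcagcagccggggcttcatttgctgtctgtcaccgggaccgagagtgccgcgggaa
TATAAA was found once in the Kitl window, 25 bases before the start, and not in the Kit window, and 13.6% of 32851 mouse promoters held it. GGGCGG was found 1 time for Kit and 3 times for Kitl, with overlapping copies in Kitl, and 35.7% of promoters held it. The letters of a motif for erythroid transcription factors, AGATAA, were in neither window and in 11.2% of all promoters. Those of an E-box used by MITF, CATGTG, were also in neither window, and in 14.2% of all promoters. GC content was 69% for Kit and 68.7% for Kitl.

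Kit, the receptor, was highest in submandibular epithelium. The parotid epithelial libraries had 33.29, 44.52, 44.82 and 32.96 CPM, and the submandibular ones 68.31, 78.15, 89.16 and 115.1 CPM. Every parotid library was below every submandibular one. The fitted difference was a log2 fold change of -1.17 with an SE of 0.18, that is 2.25-fold lower in parotid epithelium (adjusted p = 0.000209, edgeR's quasi-likelihood test, Benjamini-Hochberg adjustment over all genes tested). Counts of Kit were 684 to 951 in the parotid libraries and 1681 to 3139 in the submandibular ones. Without submandibular replicate 4, the highest, or any other single library of these groups, the log2 difference was between -1.26 and -0.99 and was called each time.

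In mesenchyme Kit had 27.52, 32.33, 22.43 and 33.33 CPM in the parotid gland and 22.21, 27.01, 23.33 and 33.38 CPM in the submandibular gland. The glands overlapped fully, and the log2 difference of 0.13 (SE 0.18) did not pass the test (adjusted p = 0.631, same test). Its sign turned, at -0.055, when libraries were scaled by their totals only. The gland difference itself differed between the layers: the difference in epithelium minus that in mesenchyme was -1.30 on the log2 scale (SE 0.25, adjusted p = 0.00135).

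The layer contrast of Kit was clear in the submandibular gland and small in the parotid gland. In the submandibular gland it averaged 87.7 ± 20.2 CPM in epithelium and 26.5 ± 5.04 CPM in mesenchyme (SD, n = 4 each), without overlap. This was a log2 difference of 1.73 (SE 0.18), or 3.31-fold higher in epithelium (adjusted p = 2.38e-07, edgeR's quasi-likelihood test). In the parotid gland it averaged 38.9 ± 6.67 CPM in epithelium and 28.9 ± 5.003 CPM in mesenchyme, with overlapping libraries. The log2 difference of 0.43 (SE 0.18, 1.35-fold) was near the threshold, with an adjusted p of 0.043. It missed the threshold under DESeq2 (0.39, adjusted p = 0.0542), with DESeq2's size factors in edgeR (0.39, adjusted p = 0.0593) and with no filter on low counts (0.42, adjusted p = 0.0561). It also missed it without parotid epithelium replicate 2 or 3 (0.36 for both) or parotid mesenchyme replicate 1 (0.41) or 3 (0.33). From high to low the order of the group means was submandibular epithelium, parotid epithelium, parotid mesenchyme and submandibular mesenchyme. Only the first step of this order was free of overlap between libraries.

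Kitl, the ligand, was highest in parotid mesenchyme and lowest in parotid epithelium. The parotid epithelial libraries had 63.18, 33.03, 22.39 and 52.43 CPM, and the submandibular ones 94.62, 123.6, 115.2 and 150.7 CPM. The groups did not overlap. The log2 difference was -1.50 (SE 0.35), so Kitl was 2.83-fold lower in parotid epithelium (adjusted p = 0.00828, same test). Thus 2 of 2 genes were lower in parotid than in submandibular epithelium, where 9.72% of all tested genes were called lower, 11.2% higher and 20.9% in either direction. Both were also free of overlap between the glands, as were 10.7% of genes in this direction and 9.97% in the other. That background is 3801 genes, and it was 2452 without submandibular epithelium replicate 1.

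In mesenchyme the ligand differed between the glands the other way. Kitl had 106.3, 216.9, 149.4 and 222.4 CPM in parotid mesenchyme and 102.4, 87.74, 35.61 and 68.83 CPM in submandibular mesenchyme. The lowest parotid library was just above the highest submandibular one, a gap smaller than the SD of either group. The log2 difference was 1.24 (SE 0.35), 2.36-fold higher in parotid mesenchyme (adjusted p = 0.0125, same test). Of the 2 genes, Kitl was called here and Kit was not, where 20.8% of tested genes were called higher, 13.7% lower and 34.5% in either direction. Libraries were free of overlap for 21.7% of genes that were higher and 15.1% that were lower. The split of those calls, 3785 higher and 2497 lower, depended on scaling. It was 2540 higher and 4245 lower by library totals only, and 2938 higher and 3420 lower by upper quartiles, while Kitl was at 1.05 and 1.12 under these and was called under both.

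The gland differences of Kitl had opposite signs in epithelium and mesenchyme, and the test of whether they were equal was passed as a difference. The difference of the gland contrasts, epithelium minus mesenchyme, was -2.74 on the log2 scale (SE 0.50, adjusted p = 0.00114, edgeR's quasi-likelihood test). Both genes were called lower in this comparison, against 12.2% of tested genes called lower, 8.67% higher and 20.9% in either direction. By library totals only, the calls over all genes were 2380 higher and 1599 lower, against 1577 higher and 2222 lower in the fit used here, and both genes remained called lower.

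Within the parotid gland the ligand averaged 42.8 ± 18.4 CPM in epithelium and 174 ± 55.9 CPM in mesenchyme (SD, n = 4 each). Kitl was 4.06-fold lower in epithelium, a log2 difference of -2.02 (SE 0.36, adjusted p = 0.000148), and no libraries overlapped. Across layers of the parotid gland Kit was called higher and Kitl lower in epithelium, where 31.4% of genes were called higher, 33.5% lower and 64.9% in all. Free of overlap between the layers were 27.8% of genes that were higher and 30% that were lower in epithelium. Within the submandibular gland the ligand averaged 121 ± 23.2 CPM in epithelium and 73.6 ± 28.8 CPM in mesenchyme, with overlapping libraries. The log2 difference of 0.72 (SE 0.35) did not pass the test (adjusted p = 0.0808), but it was 0.92 with an adjusted p of 0.0436 without submandibular mesenchyme replicate 1. Across layers of the submandibular gland 1 of 2 genes, Kit, was called, and it was higher, where 33.3% of genes were called higher, 33.7% lower and 67% in all. There 31.2% of genes were higher and 31.4% lower without overlap. In the order of group means of Kitl, parotid mesenchyme came first, then submandibular epithelium, submandibular mesenchyme and parotid epithelium, and the libraries of every neighbouring pair overlapped.

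**Figure D1:**
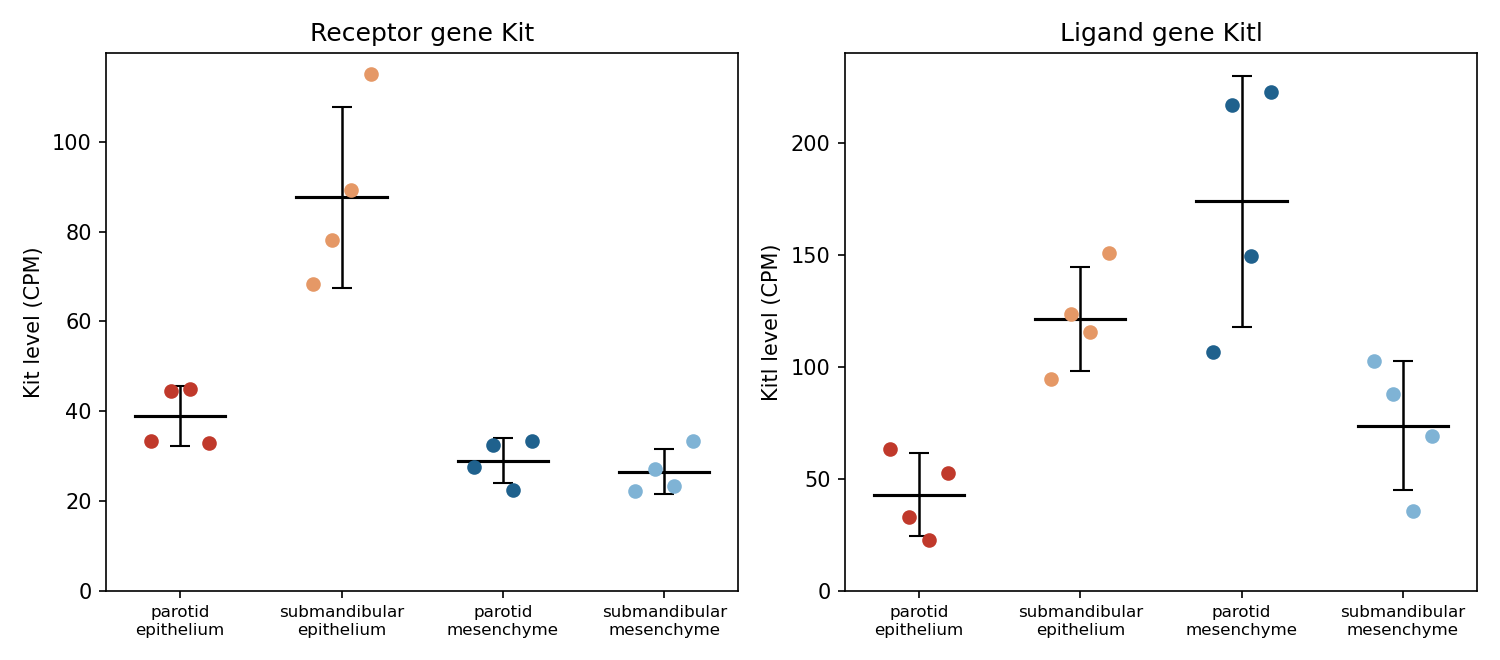
Level of Kit (left) and Kitl (right) in CPM in each library of the 4 groups; points are libraries, the bar is the mean and whiskers are 1 SD (n = 4). Kit stands at 68.31 to 115.1 CPM in submandibular epithelium and at 22.21 to 44.82 CPM elsewhere, while Kitl is lowest in parotid epithelium, 22.39 to 63.18 CPM, and reaches 222.4 CPM in parotid mesenchyme.

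In the plot of levels by library, the 4 submandibular epithelial libraries stand apart for Kit, while Kitl spreads widely in parotid epithelium and submandibular mesenchyme. The SD of Kitl was 18.4 CPM around a mean of 42.8 CPM in parotid epithelium, and 28.8 CPM around 73.6 CPM in submandibular mesenchyme. In bulk tissue, fewer cells of a type and less RNA per cell cannot be told apart, and this holds for each difference given here.

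**Figure D2:**
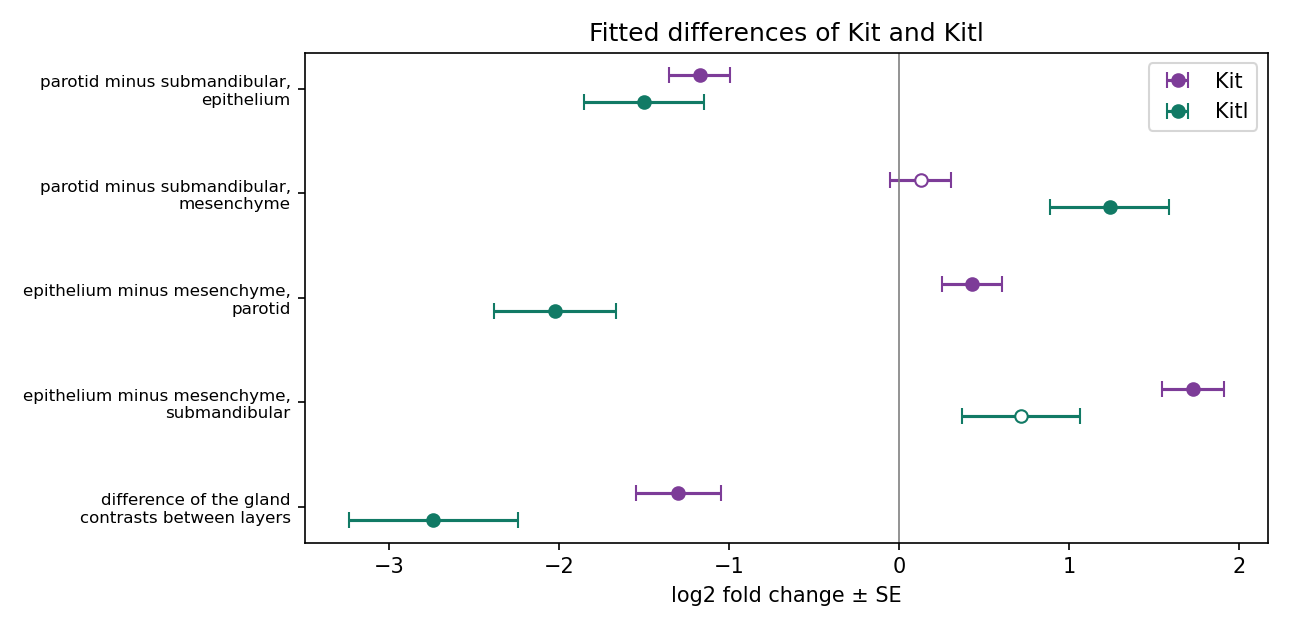
Fitted log2 fold changes of Kit and Kitl with their SE (x axis) in the 5 comparisons (y axis); filled points have an adjusted p under 0.05 and open points do not. Kit and Kitl lie on the same side of 0 between the glands in epithelium, at -1.17 and -1.50, and on opposite sides between the layers of the parotid gland, at 0.43 and -2.02.

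The plot of fitted differences shows the open points for Kit between the glands in mesenchyme and for Kitl between the layers of the submandibular gland. The remaining 8 fitted values passed the threshold.

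Levels of receptor and ligand were compared per kilobase of the main transcript. In parotid epithelium they were close, 7.46 ± 1.28 CPM per kilobase for Kit and 7.57 ± 3.27 for Kitl (SD, n = 4). In submandibular epithelium both were higher, 16.8 ± 3.87 CPM per kilobase for Kit and 21.4 ± 4.11 for Kitl. In parotid mesenchyme the ligand led by most, with 5.54 ± 0.96 CPM per kilobase for Kit and 30.8 ± 9.90 for Kitl. In submandibular mesenchyme Kit had 5.08 ± 0.97 and Kitl 13.0 ± 5.11 CPM per kilobase. The length that a gene is divided by matters: over all annotated exons joined, parotid epithelium had 4.37 CPM per kilobase of Kit and 7.23 of Kitl.

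The ratio of Kit to Kitl counts within a library does not depend on scaling. On the log2 scale it was -0.92, 0.43, 1.00 and -0.67 in parotid epithelium. The submandibular epithelial libraries were at -0.47, -0.66, -0.37 and -0.39. Parotid epithelium thus held libraries with more Kit and libraries with more Kitl counts, and submandibular epithelium was narrow. In parotid mesenchyme it was -1.95, -2.75, -2.73 and -2.74, and in submandibular mesenchyme -2.20, -1.70, -0.61 and -1.04. The receptor share was higher in epithelium than in mesenchyme of the parotid gland by 2.501 on the log2 scale, or 5.66-fold, without overlap. An exact two-sided permutation test over libraries gave p = 0.0286, the smallest that 4 against 4 libraries allow, and 0.0761 after Benjamini-Hochberg adjustment over 4 comparisons. The difference between layers of the submandibular gland was 0.92, and that between glands in mesenchyme was -1.15, each with an exact p of 0.0571 and an adjusted p of 0.0761. Between the glands in epithelium it was 0.43, with an exact permutation p of 0.429. None passed the threshold after adjustment.

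**Figure D3:**
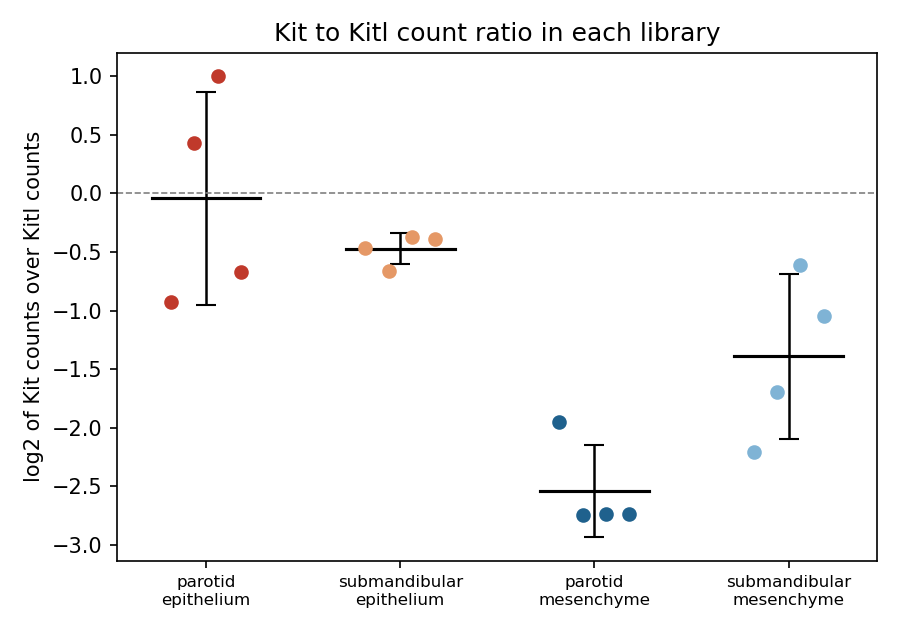
log2 of Kit counts over Kitl counts in each library of the 4 groups; points are libraries, bars are means and whiskers are 1 SD (n = 4), and the dashed line marks equal counts. Parotid epithelium spreads from -0.92 to 1.00 around the line, submandibular epithelium lies between -0.66 and -0.37, and parotid mesenchyme is lowest, from -2.75 to -1.95.

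The plot of ratios places all 8 mesenchymal libraries below equal counts, and 6 of 8 epithelial ones. In submandibular mesenchyme, replicate 3 had the lowest Kitl, 35.61 CPM, and the highest sums of epithelial markers, 53.83 CPM, and of neuronal markers, 188.5 CPM. The part of these in the ligand level was not tested. In parotid epithelium, replicate 3 had the highest sum of 9 mesenchymal markers, 388.6 CPM, and the lowest Kitl, 22.39 CPM. Replicate 4 had nearly as high a sum, 377.5 CPM, with Kitl at 52.43 CPM. The part of mesenchymal cells in these levels was not tested.

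Relative to its level in epithelium, Kit in mesenchyme stood higher than the epithelial markers. It was at 74.3% of its epithelial mean in the parotid gland and at 30.2% in the submandibular gland. The 8 epithelial markers were at 0.906% and 1.78%. What part of Kit in mesenchyme came from epithelial cells was not tested. Markers of mast cells and melanoblasts were low. The 8 mast cell markers summed to 4.42 to 18.9 CPM in parotid mesenchyme and 2.43 to 4.79 CPM in submandibular mesenchyme, and to at most 0.578 CPM in epithelium. Mcpt4, a mast cell protease, was at 0 in every library, while 2 of the 8 averaged at least 1 CPM in mesenchyme of each gland. The 2 that could be tested were lower in epithelium of both glands. Of all genes 33.5% were lower in epithelium of the parotid gland and 33.7% in that of the submandibular gland. The parotid mesenchyme libraries with the highest mast cell sums, replicates 2 and 4 at 18.9 and 13.4 CPM, also had the highest Kit of that group, 32.33 and 33.33 CPM. The part of mast cells in those levels was not tested. Of the 8 melanoblast markers, Tyr and Dct, enzymes of pigment synthesis, averaged at most 0.0553 and 0.231 CPM in any group. The melanoblast sums of 35.06 to 57.04 CPM in parotid mesenchyme and 29.4 to 69.01 CPM in submandibular mesenchyme were mostly Ednrb, the endothelin receptor B, at 40.2 ± 10.3 and 45.1 ± 17.3 CPM. Blood progenitor and erythroid markers summed to 1127 to 1455 CPM in parotid mesenchyme and 2653 to 3229 CPM in submandibular mesenchyme. Of these 10 markers 0 were called between the glands in mesenchyme, where 34.5% of all genes were. Their median log2 difference was -0.29 (0.04 over all genes). The part of blood cells in Kit was not tested. Endothelial markers, from a cell type that also makes KIT ligand, overlapped between the glands in mesenchyme, 518.1 to 786.7 CPM in the parotid, against 569 to 794.5 CPM in submandibular. The sum of 8 neuronal markers did not, with 261.3 to 608.4 CPM in the parotid, against 32.16 to 188.5 CPM in submandibular mesenchyme, but its members went both ways. Against 20.8% of all genes called higher and 13.7% lower in parotid mesenchyme, 2 of the 7 tested were higher, 3 were lower and 2 were not called. Their part in the Kitl difference was not tested.

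KIT belongs to the class III receptor tyrosine kinases, which also include the PDGF receptors and CSF1R. Of 11 other receptors and ligands of this class 9 could be tested, and their layers were mostly opposite to that of Kit. In the parotid gland 2 were higher and 6 lower in epithelium than in mesenchyme, with a median log2 difference of -2.34, against a median of all genes near 0 (-0.0044). In the submandibular gland the counts were also 2 and 6, with a median of -2.48 (0.01 over all genes). Over all genes the shares were 31.4% higher and 33.5% lower in the parotid gland, and 33.3% and 33.7% in the submandibular gland. Pdgfra, the receptor for PDGF-A, averaged 4.52 ± 2.77 CPM in epithelium and 482 ± 59.0 CPM in mesenchyme of the parotid gland, and was lower by a log2 value of -6.74 (adjusted p = 3.12e-06). The ligands Pdgfa and Pdgfc were the 2 that were higher in epithelium. Pdgfc averaged 512 ± 73.0 CPM in epithelium and 69.3 ± 15.4 CPM in mesenchyme of the parotid gland. It averaged 308 ± 29.3 CPM in epithelium and 8.84 ± 2.30 CPM in mesenchyme of the submandibular gland. Csf1r, the receptor of macrophage growth factors, averaged 22.0 ± 6.98 CPM in the parotid, against 12.03 ± 2.43 CPM in submandibular mesenchyme, with overlap, and was not called. The sum of 8 macrophage and leukocyte markers, Csf1r among them, also overlapped, 54.26 to 96.16 CPM in parotid and 40.74 to 58.26 CPM in submandibular mesenchyme. Of these 8, 1 was called higher in parotid mesenchyme, 0 lower and 7 not called, against 20.8% and 13.7% of all genes called higher and lower.

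Between the glands in epithelium 2 of these 9 were higher and 1 lower in parotid, against 11.2% and 9.72% of all genes. Csf1r and Pdgfc were higher, with log2 differences of 1.89 and 0.73, and Pdgfd was lower, at -1.34 (adjusted p = 0.00578, 0.00566 and 0.0292, edgeR's quasi-likelihood test). The sum of the 8 macrophage and leukocyte markers also differed without overlap, at 16.14 to 24.04 CPM in the parotid, against 3.092 to 10.03 CPM in submandibular epithelium. Of these markers 5, Csf1r itself, C1qa, C1qb, C1qc and Tyrobp, were higher and 0 lower, and their part in the Csf1r difference was not tested. Pdgfd averaged 0.99 ± 0.36 CPM in the parotid, against 2.57 ± 1.69 CPM in submandibular epithelium, with overlap, and its call was lost without replicate 2 or 4 of the parotid or 1 or 3 of the submandibular epithelium. Leaving out submandibular epithelium replicate 3 took the higher calls to 5. Without the epithelial libraries richest in erythroid transcripts, Pdgfc was at 0.65 with an adjusted p of 0.0547. In mesenchyme 3 of 9 were higher in parotid and 1 lower, where 20.8% of all genes were higher and 13.7% lower. Pdgfc was higher by 2.97, Csf1 by 1.198 and Pdgfrb by 0.77, and Pdgfd was lower, at -1.01. The lower count was 2 without any 1 library of parotid mesenchyme, or without submandibular mesenchyme replicate 3 or 4.

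**Figure D4:**
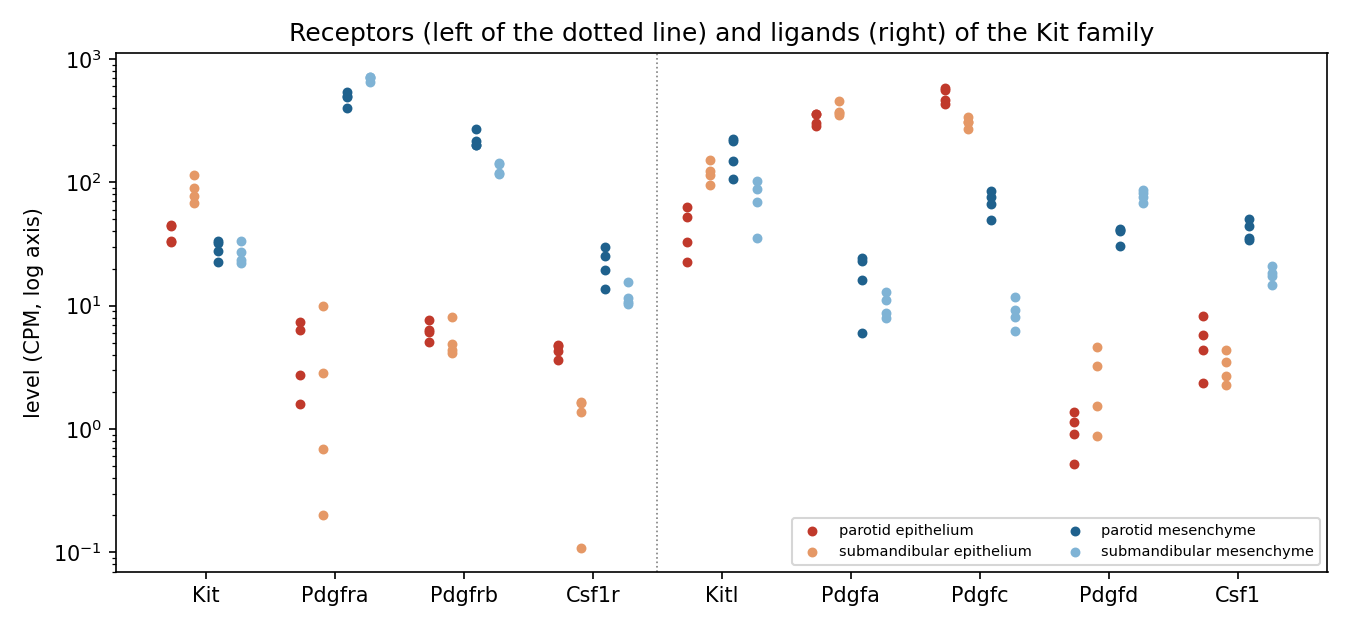
Level in CPM (log axis) of Kit and 3 other class III receptors left of the dotted line, and of Kitl and 4 other ligands right of it, in each library of the 4 groups; points are libraries. Heights may be compared between groups of 1 gene but not between genes, which differ in length. The other receptors are higher in mesenchyme and Kit is highest in submandibular epithelium, while Pdgfa and Pdgfc are higher in epithelium.

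In the plot of the receptor family, Kit is the receptor whose highest group is an epithelium. The ligands divide, with Pdgfa and Pdgfc high in epithelium, Pdgfd and Csf1 high in mesenchyme, and Kitl with a high group in each layer.

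Proteases that can cut KIT ligand from the membrane, with their helpers and inhibitors, formed a list of 9 genes, all tested. In mesenchyme 4 were higher and 1 lower in parotid, against 20.8% and 13.7% of all genes, with a median log2 difference of 0.46 (0.04 over all genes). Mmp14, a membrane metalloprotease, averaged 669 ± 163 CPM in the parotid, against 280 ± 24.9 CPM in submandibular mesenchyme, 1.26 higher on the log2 scale (adjusted p = 1.85e-05). Timp3, an inhibitor of metalloproteases, averaged 512 ± 151 CPM in the parotid, against 194 ± 19.2 CPM in submandibular mesenchyme, 1.40 higher (adjusted p = 0.00045). Mmp9, which is known to release KIT ligand in bone marrow, averaged 3.73 ± 1.66 CPM in the parotid, against 17.2 ± 2.11 CPM in submandibular mesenchyme, a log2 difference of -2.21 (adjusted p = 0.000106). Adam9, another membrane protease, and Rhbdf1, which helps ADAM17 reach the cell surface, were the others that were higher, by 0.56 and 0.64.

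In epithelium 3 of the 9 were higher in parotid and 1 was lower, against 11.2% and 9.72% of all genes, with a median of 0.09. Mmp14 and Rhbdf1 were higher, by log2 values of 0.72 and 0.40. Mmp9 was also called higher, but at low levels, 1.15 ± 0.48 CPM in the parotid, against 0.14 ± 0.13 CPM in submandibular epithelium. The 4 submandibular libraries held 14 counts in all, and the log2 difference of 2.97 was between 2.65 and 3.75 when 1 library was left out. Adam17, a main shedding protease of the cell surface, was lower by a small step, -0.25 (SE 0.07, adjusted p = 0.0209), at 114 ± 4.74 CPM in the parotid, against 136 ± 3.52 CPM in submandibular epithelium. Its call was lost without replicate 2, 3 or 4 of the parotid or 3 or 4 of the submandibular epithelium, with log2 differences of -0.25 to -0.21 when 1 library was left out. Adam10 was called in none of the 5 comparisons, with group means from 244 to 261 CPM. Between the layers, 2 were higher and 5 lower in epithelium of the parotid gland (31.4% and 33.5% of all genes), and 3 and 5 in the submandibular gland (33.3% and 33.7%).

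Signalling genes downstream of KIT formed a list of 37, all tested. In mesenchyme 17 were higher and 3 lower in parotid, with a median log2 difference of 0.22 against 0.04 over all genes, of which 20.8% were higher and 13.7% lower. The higher count was 10 with upper-quartile scaling and 9 by library totals only, where the median of all genes moved by -0.11 and -0.17. Over all genes the lean to higher calls also turned under library totals, with 2540 higher and 4245 lower. Fyn, a SRC family kinase, averaged 487 ± 34.8 CPM in the parotid, against 169 ± 8.75 CPM in submandibular mesenchyme, 1.53 higher (adjusted p = 1.96e-08). Pik3r1, a regulatory subunit of PI3-kinase that binds KIT, averaged 120 ± 17.3 CPM in the parotid, against 46.0 ± 16.1 CPM in submandibular mesenchyme, 1.39 higher (adjusted p = 1.99e-05). The adaptor Gab2 was higher by 1.26, while Stat5b, a transcription factor activated by KIT, was lower, at -0.70.

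In epithelium 10 of the 37 were higher and 2 lower in parotid, against 11.2% and 9.72% of all genes, with a median of 0.25. The count of higher genes was 16 when replicate 1 of parotid epithelium was left out, and 6 when replicate 3 of parotid or replicate 1 of submandibular epithelium was. Plcg2, a phospholipase, was higher by 1.26 and Fyn by 0.89, with 12.02 ± 1.5 CPM of Plcg2 in parotid and 5.03 ± 0.87 CPM in submandibular epithelium. Without the epithelial libraries richest in erythroid transcripts, Plcg2 was at 1.08 with an adjusted p of 0.0518. Hras was lower, at -0.47 (adjusted p = 0.000511), with 113 ± 7.35 CPM in the parotid, against 156 ± 12.5 CPM in submandibular epithelium. Between the layers, 8 of 37 were higher and 19 lower in epithelium of the parotid gland, and 10 and 18 in the submandibular gland, where all genes had 31.4% and 33.5%, and 33.3% and 33.7%.

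Inhibitors of KIT signalling formed a list of 17, of which 1 was called between the glands in epithelium, where 20.9% of all genes were. That gene was Sh2b2, which encodes an adaptor that can recruit CBL, higher by 0.76 (adjusted p = 0.0111) at 24.2 ± 3.17 CPM in the parotid, against 14.2 ± 2.85 CPM in submandibular epithelium. The count of higher genes was 2 without submandibular epithelium replicate 3 and 3 without replicate 4. In mesenchyme 4 were higher and 4 lower, against 20.8% and 13.7% of all genes. Ptpru, a receptor phosphatase that binds KIT, was much higher in epithelium, at 229 ± 41.9 CPM against 9.68 ± 3.62 CPM in mesenchyme of the parotid gland, and at 225 ± 28.1 CPM against 23.9 ± 3.26 CPM in mesenchyme of the submandibular gland. Its log2 differences were 4.57 and 3.24 (adjusted p = 2.31e-10 and 4.95e-09).

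Of 21 genes linked with KIT-positive cells of salivary glands or with the signals around them, 20 could be tested. Between the layers 14 were higher and 6 lower in epithelium of the parotid gland, and 15 and 4 in the submandibular gland, with medians of 2.82 and 3.45. The shares over all genes were 31.4% and 33.5% in the parotid gland and 33.3% and 33.7% in the submandibular gland. Fgf10, the mesenchymal ligand of FGFR2b, averaged 1.21 ± 1.06 CPM in epithelium and 456 ± 127 CPM in mesenchyme of the parotid gland. Its log2 difference between the glands in mesenchyme, 0.32 (SE 0.36), did not pass the test (adjusted p = 0.53). Fgfr2 averaged 256 ± 34.0 CPM in the parotid, against 328 ± 60.6 CPM in submandibular epithelium, and the log2 difference of -0.36 did not pass the test either (adjusted p = 0.08). Krt14, a keratin of basal and progenitor cells, averaged 200 ± 45.3 CPM in the parotid, against 197 ± 32.7 CPM in submandibular epithelium (log2 difference 0.03, SE 0.51, adjusted p = 0.98).

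Between the glands in epithelium 4 of these 20 genes were higher and 7 lower in parotid, against 11.2% and 9.72% of all genes, with a median of -0.07. Krt5 and Krt19, keratins of ductal and basal cells, were lower along with Kit. Krt19 had 5.131, 5.301, 9.427 and 4.674 CPM in the parotid, against 89.34, 83.8, 112.8 and 62.59 CPM in submandibular epithelium, a log2 difference of -3.83 (SE 0.43, adjusted p = 2.03e-05). Krt5 had 8.396 to 16.97 CPM in the parotid, against 67.03 to 223.3 CPM in submandibular epithelium, at -3.12 (adjusted p = 0.00286). Nrtn, a neurotrophic factor, was higher by 0.90 (adjusted p = 0.000473), with 75.8 ± 12.8 CPM in the parotid, against 40.5 ± 6.25 CPM in submandibular epithelium. Sox10, which marks distal progenitor cells, had 238.5, 346.2, 375.5 and 327.7 CPM in the parotid, against 102.5, 127.3, 92.35 and 207.9 CPM in submandibular epithelium. These did not overlap, but the log2 difference of 1.28 (SE 0.59) did not pass the test (adjusted p = 0.141). The count of higher genes was 1 when replicate 1 of submandibular epithelium was left out, and 2 when its replicate 2 or 3 or replicate 3 of parotid epithelium was.

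Egfr, the epidermal growth factor receptor, was highest in parotid mesenchyme and next in submandibular epithelium, as was Kitl. It averaged 35.8 ± 4.04 CPM in the parotid, against 61.6 ± 3.52 CPM in submandibular epithelium, and 130 ± 29.1 CPM in the parotid, against 30.01 ± 11.99 CPM in submandibular mesenchyme. The log2 differences between the glands were -0.78 in epithelium and 2.12 in mesenchyme (adjusted p = 0.0121 and 9.85e-07), and their difference was -2.90 (adjusted p = 2.82e-06). Without the epithelial libraries richest in erythroid transcripts, the difference in epithelium was -0.74 with an adjusted p of 0.08.

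Factors known to regulate Kit in mast cells, melanocytes and blood formed a list of 9 genes. In epithelium 4 were called between the glands, all higher in parotid, where Kit was lower. Of all genes 11.2% were called higher there and 20.9% in either direction. Of the 9, 2 were called higher when replicate 4 of parotid or replicate 1 of submandibular epithelium was left out. Gata2 averaged 17.3 ± 6.55 CPM in the parotid, against 0.22 ± 0.19 CPM in submandibular epithelium, 6.35 higher on the log2 scale (adjusted p = 4.05e-07). Lmo2, a partner of GATA factors, averaged 47.5 ± 3.14 CPM in the parotid, against 5.53 ± 0.61 CPM in submandibular epithelium, 3.10 higher (adjusted p = 8.59e-10). Mitf, which drives Kit in mast cells and melanocytes, had group means between 2.26 and 4.96 CPM and was not called between the epithelia (-0.58, adjusted p = 0.141). In mesenchyme 1 was higher and 2 lower in parotid, against 20.8% and 13.7% of all genes, and Mitf was one of those lower, at -1.13. The higher count there was 2 without submandibular mesenchyme replicate 1.

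The genes most like Kit and Kitl were ranked by the root mean square difference of log2 CPM over the 16 libraries, after each gene was centred on its own mean. Among 11470 genes the closest to Kit were Limk2 (0.23), Sh3d19 (0.31), Trim2 (0.33), Avpi1 (0.34) and Prkci (0.35), where the median gene was at 0.79. Limk2 averaged 85.3 ± 14.9 CPM in the parotid, against 207 ± 26.1 CPM in submandibular epithelium, and 56.4 ± 4.42 CPM in the parotid, against 62.1 ± 4.51 CPM in submandibular mesenchyme. The closest to Kitl were Ctso (0.55), Ggta1 (0.59), Irf2 (0.61), Fosl2 (0.61) and Hspa1b (0.61), with the median gene at 1.03. Ctso averaged 5.48 ± 1.65 CPM in the parotid, against 16.6 ± 2.88 CPM in submandibular epithelium, and 24.7 ± 5.05 CPM in the parotid, against 9.99 ± 1.37 CPM in submandibular mesenchyme. Counts of Hspa1b are uncertain because it has a near-identical neighbour. Kit and Kitl were themselves 1.09 apart, farther than the median gene from either.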

How the data were processed

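The authors deposited raw counts per gene for all 16 libraries, a filtered table of the same counts and a normalized signal table, which they name CPM. Per the labels' protocols, total RNA was made into cDNA with SMART-Seq v4 and libraries with Nextera XT, which do not mark strand. STAR 2.5.2a, edgeR and GRCm38 (mm10) are named per the submitters' processing notes; the sources used here do not give the read counter or the annotation. Recomputing the deposited CPM from the counts gave a largest relative difference of 4.98e-15. No pair of replicates agreed within sampling noise (chi-square per gene 9.56 to 47.9 over 24 pairs).

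The deposited counts were fitted with edgeR 4.0.16 in R 4.3.3 (TMM, filterByExpr, robust quasi-likelihood, 1 coefficient per group, all 16 libraries), with spike-in features left out (0.00115 to 0.00651% of counts). The filter kept 18191 genes and at least 99.88% of counts. A gene is called where its p, adjusted over these by the Benjamini-Hochberg method, is under 0.05. CPM use totals of the kept genes and TMM factors of 0.9256 to 1.087. Ratios of counts had a pseudocount of 0.5 and exact permutation tests. Sequences came from GENCODE and RefSeq tables.

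The members and lists were chosen with earlier results of these data known. By the rule for named genes, all members of the receptor, protease and salivary lists could be named. From the other lists it took up to 4 called genes in each direction with the largest changes among those reaching 10 CPM in the higher group, besides members not called. The 5 genes nearest to each member were named. One gene that the rule took is not reported here. Alternatives were DESeq2 1.42.0, limma 3.58.1, other scalings and filters, a replicate block, and leaving out libraries.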

Additional observations from a re-analysis of the deposited data

Results flagged for a closer look

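For Kit and Kitl the gland difference in epithelium differed from that in mesenchyme, by -1.30 and -2.74 on the log2 scale (edgeR's quasi-likelihood test of the interaction, adjusted p under 0.05 here and for each gene below). The same test was passed by other genes named with them, and by 20.9% of all tested genes, 8.67% higher and 12.2% lower. Called higher and lower were 0 and 1 of 9 class III receptors and ligands, and 1 and 2 of 9 proteases and inhibitors. In the signalling list they were 4 and 6 of 37, and among inhibitors of KIT signalling 3 and 2 of 17. For the salivary list they were 3 and 6 of 20, and for regulators of Kit 3 and 1 of 9. Among class III ligands the gene was Pdgfc, at -2.24. Among proteases and inhibitors it was Adam9 at -0.818, Mmp9 at 5.18 and Timp3 at -1.48. Among signalling genes it was Fyn at -0.637, Plcg2 at 1.45, Stat5b at 1.40, Hras at -1 and Pik3r1 at -1.70. Among inhibitors of KIT signalling it was Ptpru at 1.33. Among genes of the salivary epithelium and its signals it was Fgf7 at 3.16, Fgfr2 at 0.987, Krt5 at -6.67, Krt19 at -4.47, Sox9 at -3.46, Nrtn at 1.10 and Egfr at -2.90. The size for Krt5 was uncertain, from -9.10 to -5.29 with 1 library left out, though its call was kept. Gata2 was at 6.42, Lmo2 at 3.65 and the endothelial receptor Kdr at 3.18. Of the 8 endothelial markers, Kdr among them, 3 were called higher in this test, 1 lower and 4 not called. Their sum was low in both epithelia, 10.13 to 19.37 CPM in the parotid and 11.93 to 16.5 CPM in the submandibular gland. The genes nearest to Kit, chosen for a pattern like it, were at -1.14 for Limk2, -0.669 for Sh3d19, -1.15 for Trim2, -1.15 for Avpi1 and -0.817 for Prkci. Sh3d19 and Kdr each lost the call in 4 of 16 fits that left out 1 library. For Sh3d19 these were without parotid epithelium replicate 1, parotid mesenchyme replicate 2 or submandibular epithelium replicate 3 or 4, with an adjusted p of up to 0.0631. For Kdr they were without replicate 3 or 4 of the parotid or 2 or 3 of the submandibular epithelium, with an adjusted p of up to 0.0696. Those nearest to Kitl, chosen in the same way, were at -2.91 for Ctso, -2.56 for Ggta1, -2.18 for Irf2, -2.72 for Fosl2 and -2.14 for Hspa1b.

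Some groups held 1 library far from the other 3, measured as its gap to the nearest library over the range of the group. The log2 ratio of Kit to Kitl in parotid mesenchyme had a value of 0.986, with replicate 1 apart at -1.95. For single genes the values were 0.847 for Pdgfd and 0.874 for Hras in parotid mesenchyme, and 0.898 for Adam10, 0.868 for Krt19, 0.884 for Egfr and 0.859 for Fosl2 in parotid epithelium. In submandibular epithelium they were 0.879 for Krt5 and 0.857 for Hspa1b. In submandibular mesenchyme they were 0.839 for Adam17, 0.976 for Pik3r1, 0.882 for Krt5, 0.91 for Prkci, 0.864 for Ctso and 0.862 for Fosl2. At this limit chance alone marks about 5% of groups.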

How the results depend on the processing

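The epithelial gland differences of Kit and Kitl, the mesenchymal one of Kitl, the layer differences of Kitl in the parotid gland and of Kit in the submandibular gland, and both interactions kept direction and call in every alternative run. For Kit between the layers of the parotid gland, 0.43 in the fit used, the call was lost with DESeq2's size factors (0.39), DESeq2 (0.39) and no filter (0.42), and leaving out 1 library gave 0.33 to 0.51. For Kit between the glands in mesenchyme, library totals only gave -0.055. For Kitl between the layers of the submandibular gland, leaving out 1 library gave 0.49 to 0.92, and it was called without submandibular mesenchyme replicate 1. With a replicate block it was 0.78, called with an adjusted p of 0.0473. Same-numbered libraries correlated from -0.12 to 0.22, and 5 of 16 correlated best with their own number on average over the other groups. Between the layers of the submandibular gland the 4 same-numbered pairs were at 0.02 to 0.22, and differently numbered ones reached 0.21. Whether the numbers pair some of the samples could not be settled. Of the 10 fitted values of Kit and Kitl, the replicate block changed no other call. The count of genes called between the epithelia was 2452 to 4540 with 1 library left out and 1846 without parotid epithelium replicate 4 and submandibular epithelium replicate 1, chosen after seeing the data. The cause of these shifts was not tested. By library totals only, the median log2 difference of all genes moved by -0.17 between the glands in mesenchyme, by -0.12 between the layers of the submandibular gland and by 0.14 in the interaction. Leaving out 1 library, the log2 ratio of Kit to Kitl differed by 2.15 to 2.80 between layers of the parotid gland and 0.65 to 1.18 between those of the submandibular gland, and by 0.08 to 0.73 between glands in epithelium and -1.42 to -0.89 in mesenchyme. With 4 libraries a group, exact tests could not give an adjusted p of the ratio under 0.05 unless several comparisons reached the smallest p. For named genes and lists, each result was counted once per alternative run. In this count no result reversed, 4641 stayed the same, 115 lost their call and 76 moved, most often between the glands in epithelium.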
